A study of Mus musculus with 6 samples.

Results

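The transcripts described here belong to 10 genes linked to reactive glia: Serpina3n, Gfap, Vim, Edn2, Fgf2, Stat3, Socs3, Cp, Timp1 and Lcn2. They were taken by symbol from the platform's annotation, which pairs them with 18 of the 45281 probes on the array and names 19057 genes in all. Of these 18 probes, 13 (from 8 genes) were bright enough to test, as were 19921 probes in all, and 5 were not. A probe counted as detected on an array at a detection p under 0.05, and it was tested if detected on at least 3 of the 6 arrays. Edn2 and Fgf2 had no probe bright enough to test. The samples were mouse retinas, 3 from wild-type animals (source given as Jax WT) and 3 from Vldlr knockout animals, with 1 Illumina BeadChip each. The deleted gene, Vldlr, codes for a receptor of triglyceride-rich lipoproteins. The labels give JAX as the background strain of both groups but no strain name, age or sex and no description of the disrupted allele, and they do not say whether a sample is 1 animal or a pool. Spread between samples may therefore be technical, though not only technical among the knockout samples, whose sex-linked signals differed (below). Signal of Xist, an RNA of female cells, was on 2 of 3 knockout and 0 of 3 wild-type arrays. Sex is thus partly mixed with genotype. A strain difference between the groups cannot be told apart from the knockout.

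Glia respond to injury of the nervous tissue by changing shape and gene expression. In the retina the responding cells are the Müller glia, which span its whole thickness, and the astrocytes of the nerve fibre layer. Müller cells normally hold little of the filament protein GFAP, and its appearance in them is the usual sign of retinal stress. Damaged photoreceptors release signals such as endothelin 2, cytokines of the LIF family act through the receptor chain gp130, and STAT3 carries that signal to the nucleus, where SOCS3 is induced and shuts it off. In whole-retina RNA, fewer cells of a type and less RNA per cell cannot be told apart.

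The arrays differed in ways the labels do not describe. Xist, the RNA of the inactive X chromosome in female cells, had a background-subtracted intensity of 366 and 972 in knockout replicates 1 and 2 and of 2.8 in knockout replicate 3, against -0.9, 14.7 and 3.2 in the wild-type arrays. The Y-linked Eif2s3y ran the other way, at 4.8 and 3.6 in knockout replicates 1 and 2 and at 164 in knockout replicate 3, with 143 to 183 in the wild-type arrays. Lens transcripts summed to 25034 in knockout replicate 1 and to between 554 and 4913 in the other arrays. Wild-type replicate 3 correlated least with its own group across probes (median r of 0.9608). Wild-type replicate 1 correlated more with the knockout arrays (0.9773) than with its own group (0.9711). The Müller glia markers Slc1a3, Apoe, Sox9 and Dkk3 each had a probe detected on all 6 arrays. They were picked from a list of 12 after their values were seen, and 10 of the 12 had a tested probe. The brightest Vldlr probe fell by 1.17 on the log2 scale (limma adjusted p = 0.00946), but missed the threshold when knockout replicate 1 (-1.11) or 2 (-1.15) was left out, with adjusted p values of 0.0699 and 0.0719. It stayed between -1.255 and -1.001 under the 20 alternatives and missed the threshold in 7. Among these were the authors' table (limma adjusted p = 0.125), the block by number in the sample title (0.113) and both Xist fits. Of its other tested probes, 2 fell by 1.26 and 1.22, and 2 did not pass and were higher in sign in the knockout. The former (ILMN_1218264 and ILMN_2515601) missed the threshold in 10 and 12 of 19 alternatives, with changes from -1.44 to -0.95 and from -1.46 to -0.77. Without wild-type replicate 2 or knockout replicate 1 or 2 neither passed (-1.25 to -1.10), and the latter also did not pass without wild-type replicate 1 (-1.34) or 3 (-1.09). The position of each probe against the disrupted stretch was not given, and those lying outside cannot check the knockout.

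**Figure D1:**
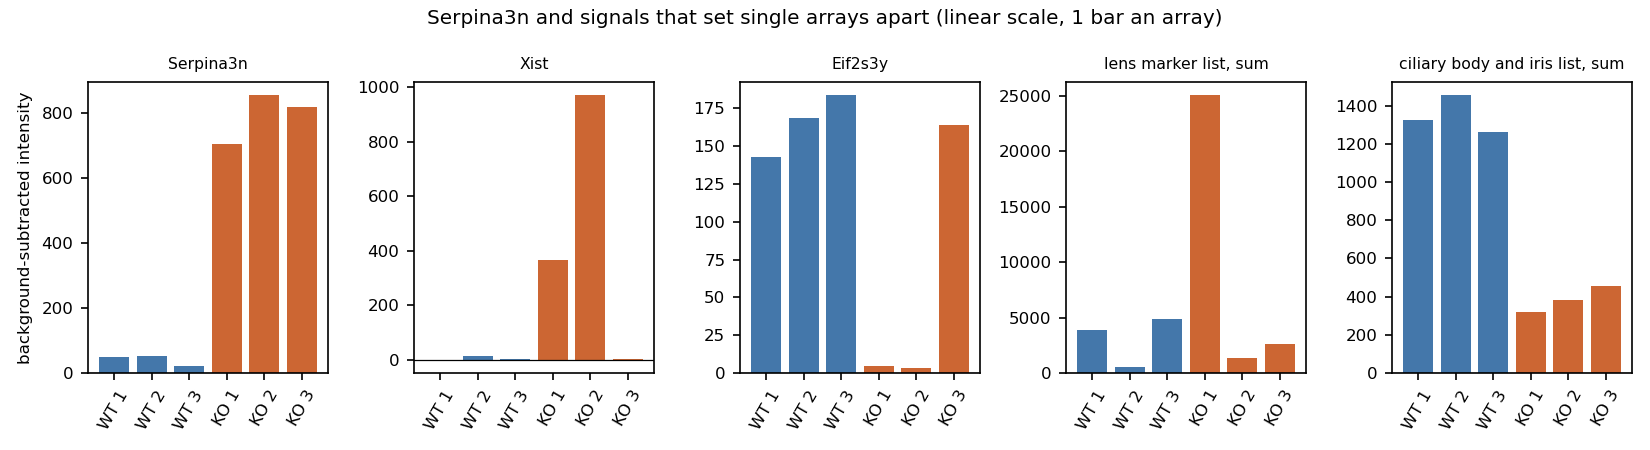
Background-subtracted intensity (linear scale) on each array, with wild-type (WT) in blue and Vldlr knockout (KO) in orange, for the Serpina3n probe, 1 probe each of Xist and Eif2s3y, and the summed lens and ciliary body and iris marker lists. Serpina3n is high on all 3 knockout arrays, whereas Xist is high on KO 1 and KO 2 only and the lens sum on KO 1 only. The ciliary body and iris sum divides the groups without overlap, at 1263 to 1454 in wild-type and 322 to 455 in knockout arrays.

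Serpina3n was much higher in the knockout retinas, and none of the other tested members passed the threshold. Serpina3n encodes a secreted inhibitor of serine proteases, one of the mouse counterparts of human alpha-1-antichymotrypsin, and is among the transcripts that reactive astrocytes induce most widely. Its only probe (ILMN_1246800) gave background-subtracted intensities of 50.3, 51.1 and 22.6 in wild-type replicates 1 to 3. The knockout arrays gave 703, 854 and 818. Every knockout array lay above every wild-type array, and the lowest knockout value was far outside the wild-type range. The group means were 41.3 ± 16.2 (SD, n = 3) and 792 ± 78.8 (SD, n = 3), a ratio of 19.2.

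After background correction and quantile normalization the log2 signal of Serpina3n was 6.26, 6.10 and 5.16 in wild-type and 9.72, 9.71 and 9.50 in knockout arrays. The 3 knockout arrays lay close together (SD 0.12), and most of the wild-type spread (SD 0.60) came from replicate 3. The change was 3.80 (SE 0.282, 95% interval 3.16 to 4.44, limma adjusted p = 0.000176 over all 19921 tested probes), or 14.0-fold with an interval of 8.95 to 21.7. By size of rise Serpina3n ranked 4 among all tested probes. The probe was above background on all 6 arrays, so it did not enter the test through the knockout group alone. The size of the rise differed between background treatments, at 2.996 without background correction and 4.35 with the authors' background-subtracted table.

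The Serpina3n difference was also computed with arrays left out. Knockout replicate 3, which has Y-linked signal like the wild-type arrays and no Xist signal, lay 3.65 above the wild-type group when it stood alone (SE 0.481, adjusted p = 0.0709). That comparison has 1 knockout array, whose spread is assumed to equal that of the wild-type arrays, and it did not pass the threshold. The lens sum of that array (2625) lay within the wild-type range. With Xist signal as a covariate the change was 3.66. Xist signal marks knockout replicates 1 and 2, so this value also rests on knockout replicate 3 alone. Without knockout replicate 1, the array with the highest lens signal, the Serpina3n change was 3.77 (limma adjusted p = 0.00195). Over the 6 arrays left out in turn it ran from 3.50 to 4.01. The part of Xist-linked differences and lens tissue in the Serpina3n values was not tested beyond these fits, and the ciliary body and iris sum in the plot of single arrays splits the groups as Serpina3n does. A single probe stands for the gene, and no other probe could be set against it.

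Serpina3n lies in a cluster of related genes, so that a probe may take up transcripts of a neighbour. The sequence of the probe was not compared with these genes. The platform's annotation lists probes for Serpina3a, Serpina3b, Serpina3f, Serpina3i and Serpina3j, and each was detected on 0 arrays of either group. Serpina3c, Serpina3g, Serpina3h, Serpina3k and Serpina3m were not analysed here. Among the wider serpin relatives 6 probes of 4 genes were tested, of which limma called 0 and 1 had an unadjusted p under 0.05. Serpinh1, the collagen chaperone, had one probe at 0.67 (adjusted p = 0.147) and a brighter one at -0.38 (adjusted p = 0.455).

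The patterns most like that of Serpina3n over the 6 arrays were those of Gdpd3, a phospholipase, and Cptp, a ceramide-1-phosphate carrier. Likeness was the root-mean-square difference of log2 values centred on their own mean, among the 16 named probes that vary at least as much as Serpina3n. It was 0.36 for Gdpd3 and 0.38 for Cptp. The next were Xist at 1.66 and the lens crystallins Crygc at 2.15 and Crygb at 2.20, which do not follow the groups.

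The promoters of the members were searched for TTCNNNGAA, the palindromic element that STAT factors bind, which reads the same on both strands. RefSeq windows of the GRCm38.p6 build, from 250 bases before to 50 after the gene start, were found for all 10 members (11 windows, since Cp has 2). The element was in the windows of Gfap and Socs3 and not in the other 9, and 8.3% of 32851 windows of all genes hold it. The stricter form TTCCNGGAA, of the same length and present in Gfap, is in 1.15% of all windows. With the gene's first base counted as 0, TTCNNNGAA begins at -154 in Socs3 and at -2 in Gfap. The stretches are shown for the gene that rose and for these 2, with the element in capitals. A match here describes letters only, and binding was not measured.
Serpina3n, chr12:104406458-104406707, plus strand: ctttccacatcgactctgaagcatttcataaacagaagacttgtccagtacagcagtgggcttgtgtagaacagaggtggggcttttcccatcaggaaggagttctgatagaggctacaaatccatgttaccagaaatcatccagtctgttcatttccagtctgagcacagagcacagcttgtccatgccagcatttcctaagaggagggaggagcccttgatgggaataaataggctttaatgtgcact
Gfap, chr11:102897181-102897250, minus strand: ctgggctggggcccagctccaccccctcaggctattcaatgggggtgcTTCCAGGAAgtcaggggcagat
Socs3, chr11:117969487-117969546, minus strand: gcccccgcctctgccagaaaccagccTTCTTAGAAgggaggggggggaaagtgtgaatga

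Of the 13 tested member probes 1 (Serpina3n) passed an adjusted p of 0.05. Over all tested probes 435 passed, or 2.18%, with 0.653% higher and 1.53% lower in knockout. In sign 7 member probes were higher and 6 lower, and their median change was 0.06, against 0.03 over all tested probes. The groups did not overlap in 3 member probes, those of Serpina3n and Socs3 (higher) and 1 of Cp (lower), where 18.1% of all tested probes had groups that did not overlap (9.28% with knockout higher and 8.84% with knockout lower). At an unadjusted p under 0.05 limma gave the same 3 member probes, and 11.7% of all. The 12 that did not pass lay between -0.49 and 0.72. With the spread of these probes, only changes of 0.83 to 1.37 (1.78-fold to 2.58-fold) or more would have passed, so smaller changes were not detectable with 3 arrays per group.

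**Figure D2:**
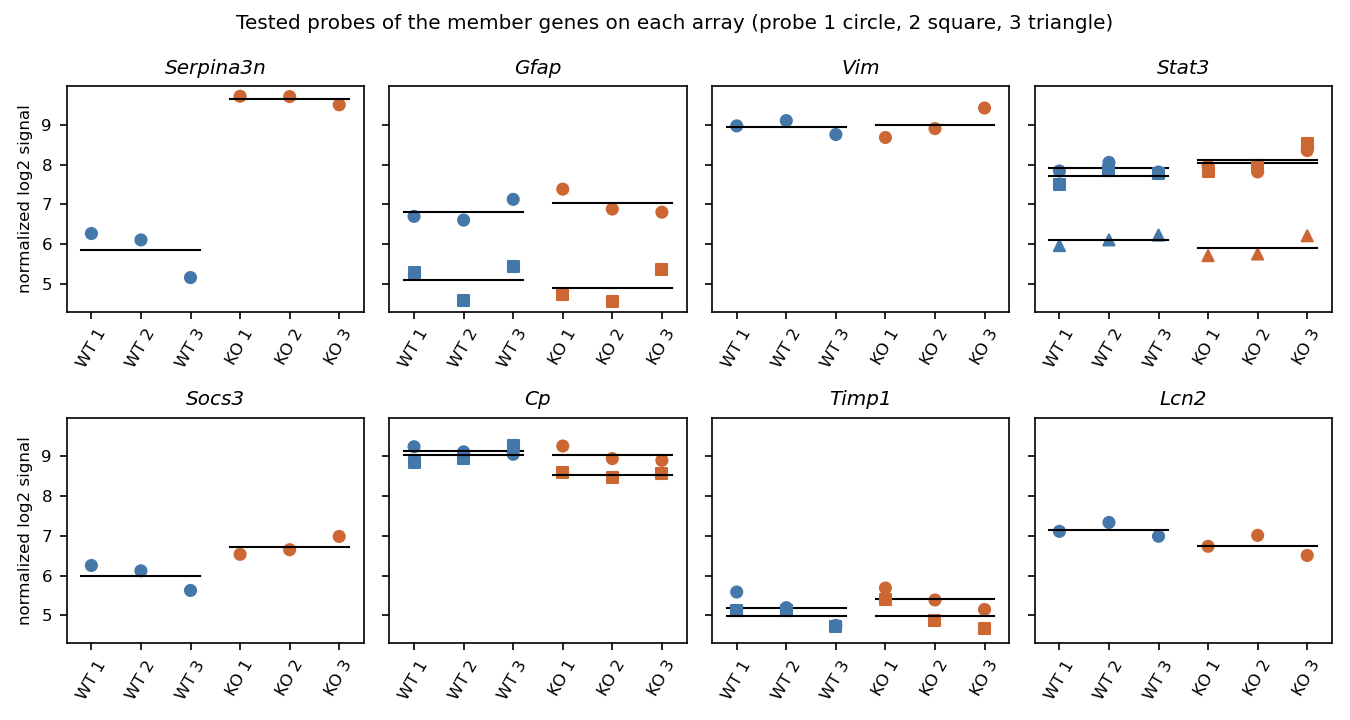
Normalized log2 signal of each tested probe of the 8 member genes on each array, with wild-type (WT) in blue and Vldlr knockout (KO) in orange; black lines are group means and marker shapes tell probes of a gene apart. The Serpina3n groups are parted by 3.80, Socs3 shows a smaller gap without overlap, and the remaining panels overlap between groups in all probes but 1 of Cp.

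Gfap, the intermediate filament protein of astrocytes and stressed Müller cells, did not pass; its promoter window is among those printed above. Its brighter probe (ILMN_1215847) gave background-subtracted intensities of 73.2, 80.0 and 134.3 in wild-type and 121.3, 102.8 and 121.8 in knockout arrays. Wild-type replicate 3 was the highest of all 6 on this scale, and the other wild-type arrays were the lowest. On the log2 scale the means were 6.81 ± 0.278 (SD, n = 3) and 7.02 ± 0.314 (SD, n = 3). The difference was 0.21 (SE 0.223, 95% interval -0.29 to 0.72, adjusted p = 0.756), which spans 0.817-fold to 1.65-fold. A change as large as that of Serpina3n lies outside this interval. Of all tested probes, 46.2% differed by at least as much as Gfap.

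The second Gfap probe (ILMN_1214715) was near background, detected on 2 wild-type arrays and 1 knockout array. It differed by -0.21 (SE 0.287, adjusted p = 0.812), opposite in sign to the first. The value of the brighter probe rested on knockout replicate 1, the array with the most lens signal, without which it was 0.03 (adjusted p = 0.982). Knockout replicate 3 alone differed from wild-type by -0.0072 (adjusted p = 0.998). The part of the lens and Xist signal in the Gfap values was not tested beyond these fits. The 5 named probes with a pattern closest to Gfap, among 7493 that vary as much, were those of Zfp414, Rbm5, Fnbp4, Tmem8b and Ntng1, at root-mean-square differences of 0.08 to 0.11, and 0 of them passed.

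Vim encodes vimentin, the filament protein that Müller cells hold in healthy retina too. Its bright probe (ILMN_2451022) was at 8.97, 9.11 and 8.76 in wild-type and 8.68, 8.90 and 9.42 in knockout arrays. The lowest and the highest value were both from knockout arrays, and the groups overlapped. The difference was 0.06 (SE 0.223, adjusted p = 0.945), within 0.733-fold to 1.48-fold. The second Vim probe was above background on 0 arrays.

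Among the signals that precede the glial response, Edn2 and Fgf2 could not be tested. Edn2, the endothelin released by damaged photoreceptors, gave background-subtracted intensities of 12.0, 2.4 and 5.6 in wild-type and 16.7, 2.1 and 10.1 in knockout arrays. It was above background on 1 array of each group, wild-type replicate 1 and knockout replicate 1. Fgf2, a growth factor that protects photoreceptors, lay between -12.4 and -5.2 on all 6 arrays and was above background on none of them. These values show only that the 2 probes were at or near background in both groups.

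The other endothelin genes did not pass either, in 7 probes of 4 genes, 1 of them with an unadjusted limma p under 0.05. Edn1, the endothelin of vessel walls, averaged 5.76 ± 0.220 over the wild-type and 6.43 ± 0.187 over the knockout arrays (SD, n = 3 each), without overlap. The difference was 0.66 (SE 0.189, adjusted p = 0.169). The endothelin receptor Ednrb, which Müller cells carry, differed by 0.14 on its brighter probe and 0.32 on its dimmer one. The converting enzyme Ece1 differed by -0.38.

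The FGF pathway held 1 probe that passed, and it was lower. Fgfr2, a receptor for FGF2 and other members of that family, was at 7.71, 7.77 and 7.75 in wild-type and 6.19, 6.32 and 6.12 in knockout arrays. Each group was tight (SD 0.0277 and 0.102), and the groups lay far apart. The fall of Fgfr2 was -1.53 on the log2 scale (SE 0.158, adjusted p = 0.00103), while 3 further Fgfr2 probes were detected on 0 arrays. For knockout replicate 3 alone it was -1.62 and did not pass (adjusted p = 0.147). The remaining 19 tested probes of the pathway did not pass. Fgf1 was at 0.70 (SE 0.168, adjusted p = 0.0894), with every knockout array above every wild-type array. In sign 11 of the 20 tested probes were higher and 9 lower, with a median of 0.05.

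Stat3, the transcription factor downstream of gp130, had 3 tested probes that disagreed in sign. The first (ILMN_2589790) was at 7.84, 8.05 and 7.81 in wild-type and 7.97, 7.81 and 8.35 in knockout arrays, a difference of 0.14 (SE 0.194, adjusted p = 0.811). The second (ILMN_2698046) differed by 0.40 (SE 0.222, adjusted p = 0.52) and the dimmest (ILMN_3096144) by -0.21 (SE 0.193, adjusted p = 0.722). On the 2 brighter probes knockout replicate 3 was the highest array, at 8.35 and 8.54. It was also the highest array for Vim and Socs3.

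Socs3, the feedback inhibitor that STAT3 induces and the other member with a STAT element in its window, was the member closest to passing after Serpina3n. Its probe (ILMN_2618176) was at 6.25, 6.12 and 5.63 in wild-type and 6.53, 6.65 and 6.98 in knockout arrays. The groups did not overlap, but the gap between the highest wild-type and the lowest knockout array was smaller than the range within either group. The difference was 0.72 (SE 0.219, 95% interval 0.23 to 1.22, unadjusted p = 0.00943, limma adjusted p = 0.204), or 1.65-fold. As background-subtracted intensity the means were 47.0 ± 6.75 (SD, n = 3) and 94.9 ± 40.3 (SD, n = 3). Socs3 was higher in sign under all 20 alternatives (0.45 to 0.99) and passed under none of them, with an adjusted p of 0.0967 at the lowest.

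The gp130 and JAK-STAT genes apart from Stat3 and Socs3 had 26 tested probes of 15 genes, of which limma called 0 and 1 had an unadjusted p under 0.05, with 12 higher and 14 lower in sign and a median of -0.01. Lifr, the LIF receptor chain, was at -0.68 on its brightest probe (SE 0.189, adjusted p = 0.152), with every knockout array below every wild-type array. Its dimmer probes differed by -0.28 and 0.14. The kinase Jak2 was at 0.50 (adjusted p = 0.43) on one probe and 0.08 on a brighter one. Lif, the cytokine made by Müller cells in injured retina, had 5 probes, each above background on 0 arrays.

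**Figure D3:**
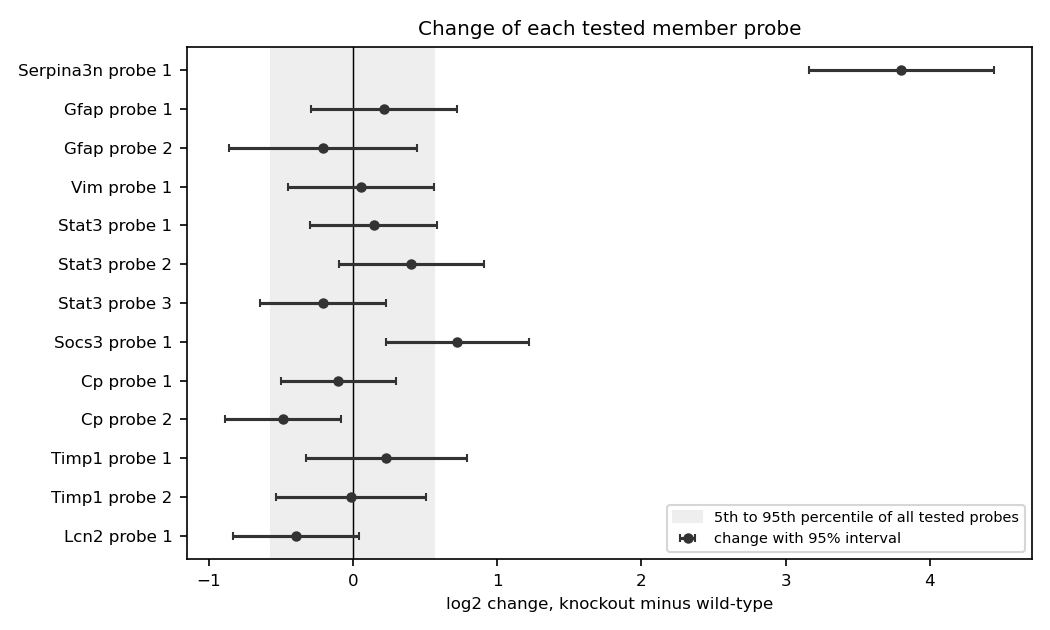
Log2 change (knockout minus wild-type) of the 13 tested member probes with 95% intervals from limma; the grey band runs from the 5th to the 95th percentile of all tested probes (-0.57 to 0.56). Serpina3n stands at 3.80, Socs3 at 0.72 lies beyond the band, and the other intervals include 0 except that of the second Cp probe.

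The secreted members Cp, Timp1 and Lcn2 did not pass. Cp encodes ceruloplasmin, the copper protein that oxidises iron for export and is made by Müller cells. The brightest Cp probe (ILMN_2520239) was at 9.24, 9.11 and 9.05 in wild-type and 9.26, 8.94 and 8.90 in knockout arrays, a difference of -0.10 (SE 0.175, adjusted p = 0.86). The second (ILMN_3083163) was at 8.85, 8.95 and 9.27 in wild-type and 8.59, 8.46 and 8.56 in knockout arrays. On that probe the groups did not overlap, and the difference was -0.49 (SE 0.176, 95% interval -0.89 to -0.09, unadjusted p = 0.0228, limma adjusted p = 0.315). The last 2 Cp probes were not tested, being above background on 1 array of each group and on 0 arrays.

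Lcn2 encodes lipocalin 2, an iron-siderophore binding protein that is strongly induced in reactive astrocytes. Its probe was at 7.11, 7.33 and 6.99 in wild-type and 6.73, 7.01 and 6.51 in knockout arrays. The knockout arrays were mostly lower, with overlap in knockout replicate 2. The difference was -0.40 (SE 0.193, 95% interval -0.83 to 0.04, adjusted p = 0.474), so that a rise of more than 1.03-fold lies outside the interval. Lcn2 was lower in sign under all 20 alternatives (-0.64 to -0.27).

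Timp1, an inhibitor of matrix metalloproteinases that reactive astrocytes secrete, was close to background. Its brighter probe (ILMN_3103896) had background-subtracted intensities of 26.5, 19.5 and 10.7 in wild-type and 28.6, 25.2 and 24.6 in knockout arrays. The log2 difference was 0.23 (SE 0.247, adjusted p = 0.761). The other Timp1 probe, detected on 3 wild-type and 2 knockout arrays, differed by -0.01 (adjusted p = 0.988). Wild-type replicate 3 was the lowest wild-type array for Serpina3n, Vim, Socs3, Lcn2, both Timp1 probes, the first Stat3 probe and the brightest Cp probe. It was the highest for both Gfap probes, the dimmest Stat3 probe and the second Cp probe.

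The genes that work beside these secreted proteins did not pass. Of the iron-handling genes, 23 probes of 12 genes were tested, with a median change of 0.03 and 2 probes at an unadjusted limma p under 0.05. Trf, transferrin, averaged 9.89 ± 0.399 over the wild-type and 8.41 ± 0.646 over the knockout arrays (SD, n = 3 each), without overlap. The difference was -1.48 (SE 0.332, adjusted p = 0.0668). Of the metalloproteinases and their inhibitors 15 probes of 11 genes were tested, with a median of -0.07 and 1 at an unadjusted p under 0.05. Mmp24, a membrane-bound enzyme of neurons, was at -0.62 (adjusted p = 0.26), 0.45 (adjusted p = 0.531) and 0.06 on its probes. The intermediate filament genes other than Gfap and Vim had 20 tested probes of 9 genes, a median of -0.05 and 2 probes at an unadjusted p under 0.05. The smallest p values were those of Prph, peripherin, at -0.45 (adjusted p = 0.339), Plec, the linker plectin, at -0.44 (adjusted p = 0.342) and Synm, synemin, at -0.41 (adjusted p = 0.433).

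No tested probe of the wider reactive astrocyte sets passed, but many of their probes could not be tested. Tested were 5 of 21 probes (4 of 7 genes) of the pan-reactive set other than the members. For the neuroinflammation set it was 12 of 24 probes (7 of 12 genes), and for the ischaemia set 7 of 21 (6 of 12 genes). Over all tested probes 2.18% were called. The pan-reactive genes other than the members gave 0 limma calls in 5 tested probes (1 at an unadjusted p under 0.05), with Cd44, the hyaluronan receptor, at -0.52 (adjusted p = 0.384) and 0.13 and the oncostatin receptor Osmr at 0.14. The genes known from astrocytes in neuroinflammation gave 0 calls in 12 tested probes, also with 1 at an unadjusted p under 0.05. In sign 9 of them were lower and 3 higher, with a median of -0.26 and groups that did not overlap in 6, against 18.1% of all tested probes. Among these Serping1, the C1 inhibitor, was at -0.44 and -0.38 on its probes (adjusted p = 0.4 and 0.471), and Gbp2, an interferon-induced GTPase, at -0.39 (adjusted p = 0.452). The genes known from astrocytes after ischaemia gave 0 calls in 7 tested probes and 0 at an unadjusted p under 0.05, with Sphk1, a sphingosine kinase, at 0.46 (adjusted p = 0.444).

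Retinal stress genes held 1 call in 13 tested probes of 11 genes. Fos, an immediate early transcription factor, was at 7.62, 7.52 and 8.05 in wild-type and 8.64, 9.10 and 9.15 in knockout arrays. Fos rose by 1.23 (SE 0.217, adjusted p = 0.0207). Its change stayed between 1.07 and 1.57 under the 20 alternatives but missed the threshold in 9 of them. These were the fits without wild-type replicate 1 or 2 (1.17 and 1.12, adjusted p of 0.0718 and 0.0939) and without knockout replicate 2 or 3 (both 1.16, adjusted p of 0.128 and 0.0978). The others were median scaling, no filter, the authors' table and both Xist fits, with adjusted p values from 0.0726 up to 0.366. Egr1, another immediate early gene, was at 1.10 (SE 0.302, adjusted p = 0.151). Cebpd, a transcription factor of the acute-phase response, was at 0.27 (adjusted p = 0.74). Of the acute-phase genes 2 probes were tested, of which limma called 0 and 1 had an unadjusted p under 0.05.

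Among markers of the glia themselves 1 probe passed, that of Gja1. Of 13 tested probes of 10 Müller glia markers limma called 0, with 2 at an unadjusted p under 0.05, and their summed intensity was 19129 to 22514 in wild-type and 20923 to 27357 in knockout arrays. Rlbp1, the retinaldehyde carrier, was at -0.69 (adjusted p = 0.208), and Sox9, a glial transcription factor, at 0.67 on its dimmer probe (adjusted p = 0.312) and 0.05 on its brighter one. Of 8 tested astrocyte marker probes 1 passed. Gja1, the gap junction protein connexin 43, was at 11.15, 10.97 and 10.82 in wild-type and 8.74, 9.16 and 9.22 in knockout arrays. Gja1 fell by 1.94 (SE 0.193, adjusted p = 0.000846). Its change was -1.74 (adjusted p = 0.141) for knockout replicate 3 alone and -1.95 (adjusted p = 0.0682) with the authors' table, neither past the threshold. Connexin 43 is also made by cells of the pigment epithelium and ciliary body.

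**Figure D4:**
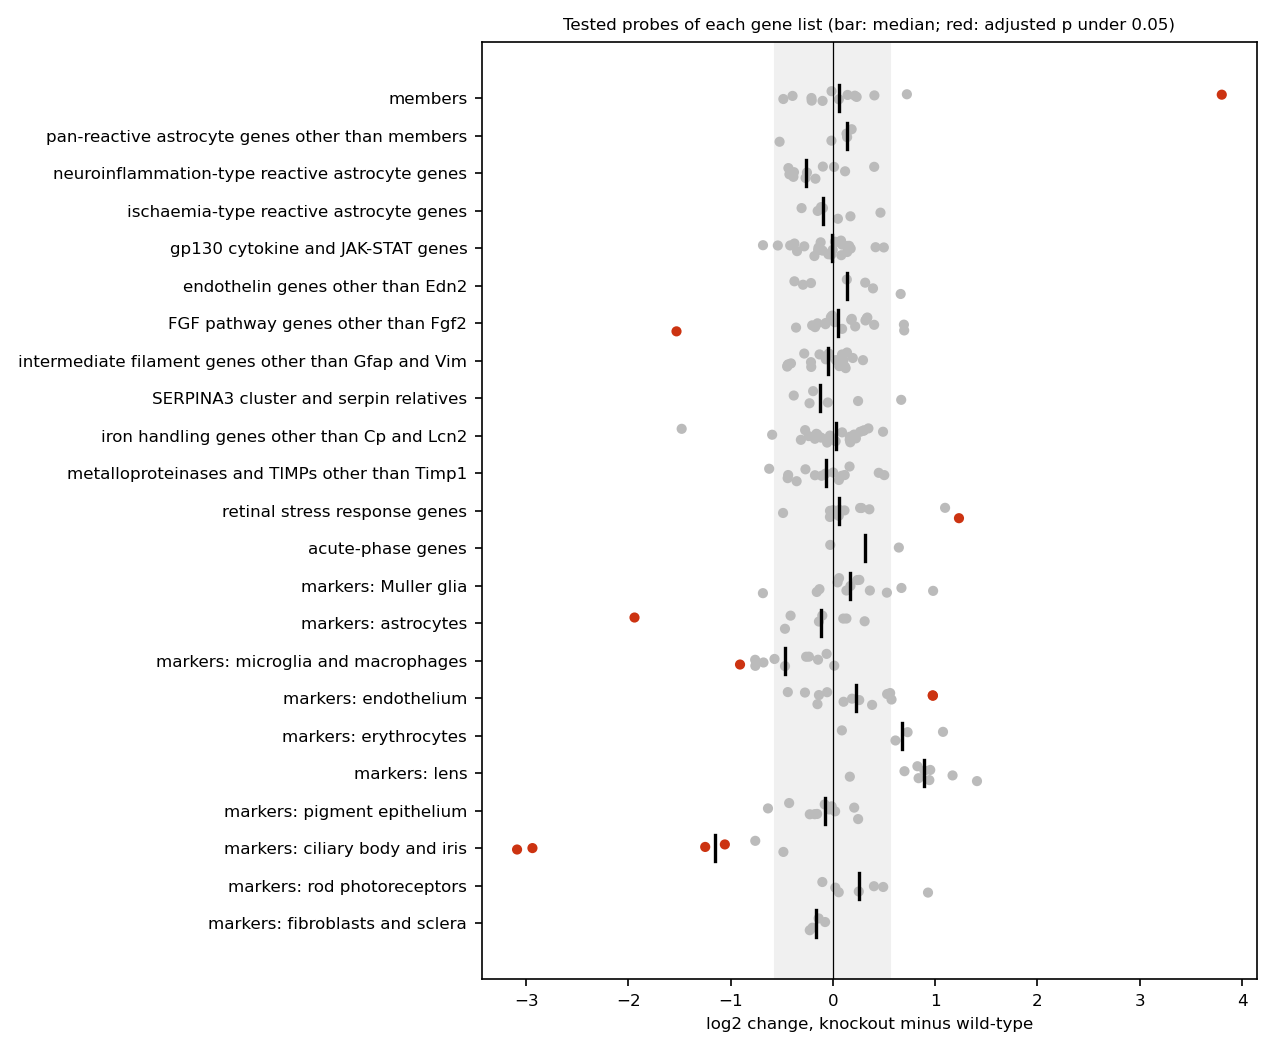
Log2 change (knockout minus wild-type) of every tested probe in each gene list, with list medians as bars, probes past an adjusted p of 0.05 in red and the 5th to 95th percentile of all tested probes as a grey band. Serpina3n at 3.80 is the only member in red, and the pathway lists hold 2 more red points, Fgfr2 (-1.53) and Fos (1.23).

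Some markers of other cells differed between the groups as well. Of 6 tested probes of ciliary body and iris markers 4 fell (Otx1, Optc, Zic1 and Wfdc1), and the list's summed intensity was 1263 to 1454 in wild-type and 322 to 455 in knockout arrays. Their part in the Serpina3n, Gja1 and Fgfr2 differences was not tested. Microglia and macrophage markers summed to 625 to 781 in wild-type and 336 to 571 in knockout arrays. Of their 11 tested probes 1 was lower by the test (Lyz2) and 0 higher. In sign 10 were lower and 1 higher, with a median of -0.47. The groups did not overlap in 7, against 18.1% of all tested probes. An unadjusted limma p under 0.05 was found in 5, against 11.7% of all. Endothelial markers summed to 3016 to 4473 in wild-type and 4256 to 5359 in knockout arrays, with 2 of 14 probes higher by the test, both of Nos3. In sign 9 were higher and 5 lower, with a median of 0.22. The groups did not overlap in 6, and 6 had an unadjusted limma p under 0.05. Optc and Otx1 passed under all 20 alternatives. Over the arrays left out in turn Zic1 ran from -1.36 to -1.10, Wfdc1 from -1.17 to -0.93, Lyz2 from -0.94 to -0.87 and the Nos3 probes from 0.89 to 1.10. They nevertheless lost their calls without several arrays, at adjusted p values of 0.0524 to 0.161. Wfdc1 and Lyz2 kept theirs only without wild-type replicate 3, Zic1 only without wild-type replicate 3 or knockout replicate 3, and Nos3 only without wild-type replicate 2 or 3. Over all alternatives Zic1 missed the threshold in 10, Wfdc1 in 9, Lyz2 in 11 and the Nos3 probes in 10 each. Lyz2 was at -0.42 (adjusted p = 0.104) without background correction and at -0.46 (adjusted p = 0.0932) with an offset of 50.

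Probes of the pigment epithelium (11), rods (7), erythrocytes (4), lens (9) and fibroblasts (4) gave 0 limma calls, with 1, 1, 1, 0 and 0 probes at an unadjusted p under 0.05. In sign, however, lens markers were higher in knockout in 9 of 9 probes (median 0.89) and erythrocyte markers in 4 of 4 (median 0.67). Over all tested probes 53.8% were higher, and probes of 1 tissue are not independent of each other. The lens sum was 25034 in knockout replicate 1. In knockout replicates 2 and 3 it was 1347 and 2625, within the wild-type range of 554 to 4913. The erythrocyte sum was 3712 to 9000 in wild-type and 6749 to 12376 in knockout arrays. Rod markers were higher in 6 of 7 probes (median 0.25), and fibroblast markers were lower in 4 of 4 (median -0.17). The part of these tissues in the members' values was not tested.

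**Figure D5:**
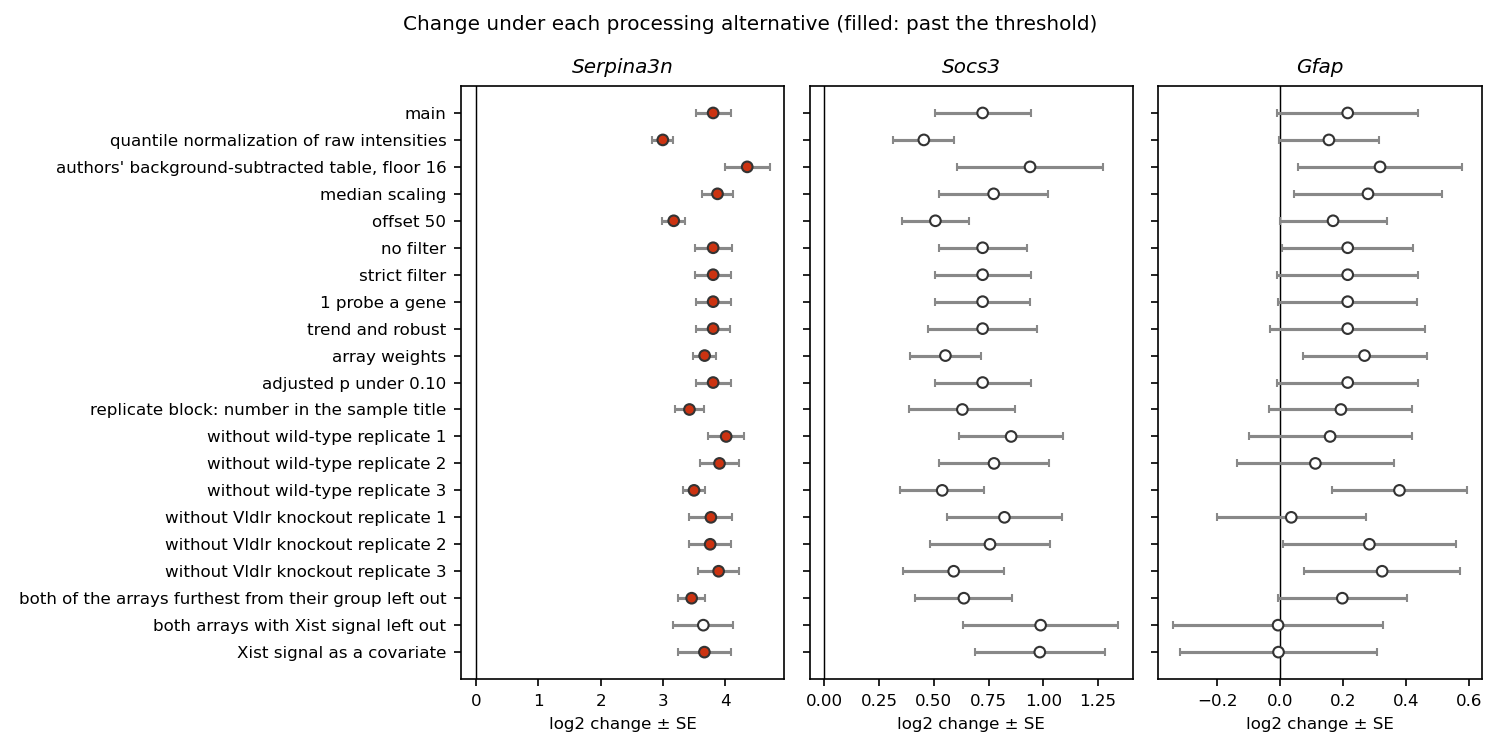
Log2 change ± SE of Serpina3n, Socs3 and Gfap (brighter probe) under each alternative processing, 1 point per setting, filled where the threshold was passed; each panel has its own axis. Serpina3n stays between 2.996 and 4.35 and is unfilled in 1 setting, the fit without both arrays with Xist signal. The Xist covariate fit also sets knockout replicate 3 against the wild-type arrays. Socs3 is above 0 but unfilled throughout, and Gfap lies on either side of 0.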

How the data were processed

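Retinal RNA of 3 wild-type and 3 Vldlr knockout samples was measured on 1-colour Illumina arrays, read with GenomeStudio per the submitters' processing notes (version not stated there). The authors deposited non-normalized intensities, each with a detection p-value, per the file headers. A second deposited table holds the same intensities minus 1 constant per array (57.2 to 69.1), and the series' value table differs from it in 0 values. No background or scaling step beyond this is recorded.

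Here the non-normalized intensities went through neqc of limma 3.58.1 in R 4.3.3, which took negative controls from the detection p, added an offset of 16, quantile-normalized and took log2. These steps compress changes of dim probes. Every probe was kept as a feature of its own. The groups, taken from the source names, were compared with lmFit and eBayes (both sides, no covariate), p-values were Benjamini-Hochberg adjusted across the 19921 tested probes, and 0.05 was the threshold. Between 41.3% and 46.3% of probes were detected per array, and having 3 arrays per group limits the precision. The fit was tested on simulated data with normal noise drawn independently for each probe and array. Those data hold no sex or lens differences between arrays, so they cannot check the fit against these.

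Symbols came from the platform's annotation (34885 probes with 1 symbol, 18 with several, 10378 with none). Members and gene lists were chosen with earlier results of these data known. All member probes are named, and from every other list the probes past the threshold, otherwise up to 3 with the smallest p. Further probes of those genes, Fgf1, Egr1, Ednrb, Ece1, Cebpd, Lif, the Serpina3n neighbours and the Müller markers named as detected were added after their values were seen. Alternatives were other normalizations, an offset of 50, no filter or a stricter one, 1 probe a gene, a trended robust variance, array weights, a threshold of 0.1, the title number as a block and leaving out each array. Leaving out knockout replicate 1 with wild-type replicate 3, leaving out both arrays with Xist signal and Xist as a covariate were chosen after seeing the data. Arrays left out were dropped before normalization. Figures used matplotlib 3.10.9.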

Additional observations from a re-analysis of the deposited data

How the results depend on the processing

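Serpina3n kept its direction and its call in 19 of 20 alternatives and lost the call in 1, without both arrays with Xist signal (3.65, adjusted p = 0.0709), where 0 member probes passed. Fewer arrays enter that fit. Serpina3n ran from 3.50 to 4.01 over the arrays left out in turn. The 20 alternatives are not separate checks. The threshold of 0.1 reuses the main fit, and both Xist fits set knockout replicate 3 against the wild-type arrays. For the knockout change, the title-number block rests on the same arrays as leaving out knockout replicate 1 with wild-type replicate 3. The brighter Gfap probe passed under none and ran from 0.03 to 0.38 over the arrays left out. It was -0.0072 without both arrays with Xist signal and -0.0058 with Xist signal as a covariate. The count of 435 probes called was 223 with the authors' table, 920 with array weights, 282 with the title number as a block, 36 without both arrays with Xist signal, 144 with Xist signal as a covariate, and 234 to 499 over the arrays left out. It was 288 without wild-type replicate 2, 247, 234 and 288 without knockout replicates 1, 2 and 3. Member probes that did not pass changed sign in places, and the cause was not tested. The second Gfap probe was at 0.032 with the block, 0.033 without knockout replicate 1 and wild-type replicate 3, 0.28 without the Xist arrays and 0.27 with the covariate. In the same order the brighter Timp1 probe was at -0.12, -0.12, -0.026 and -0.027. The dimmest Stat3 probe was at 0.11 in both Xist fits. With array weights Vim was at -0.12 and the first Stat3 probe at -0.073, and the other Timp1 probe was at 0.073 with the authors' table. Over the arrays left out Vim ran from -0.15 to 0.22, the first Stat3 probe from -0.0112 to 0.26 and the dimmer Timp1 probe from -0.23 to 0.13. Samples with the same title number (2 pairs) had deviations from their group means that correlated at -0.02 and -0.28 across probes. The title numbers were therefore not taken to pair samples. Wild-type and knockout arrays of the same replicate number, which follows their order in the series, correlated at 0.276, 0.314 and 0.365. All other pairs between the groups lay between -0.275 and 0.0912. No fit blocked on this order, and what lies behind it was not tested. With the title number as a block Serpina3n was at 3.42 (limma adjusted p = 0.000457), Gfap at 0.19, and 1 member probe passed.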
